A study of Mus musculus with 9 samples.

Results

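The 10 genes described here encode proteins that bind AU-rich elements or stem-loops in mRNA and set how long that mRNA lasts. They are *Zfp36*, *Zfp36l1* and *Zfp36l2* of the tristetraprolin family, *Zc3h12a* and *Zc3h12d* of the Regnase family, the Roquin genes *Rc3h1* and *Rc3h2*, and the AU-rich or stem-loop binding genes *Arid5a*, *Elavl1* and *Khsrp*. They were listed by name, with no threshold on a measured value but with earlier results of these data known, and all 10 were found among the 27179 gene identifiers of the count table. All 10 also passed the filter on low counts, which left 13129 genes to test.

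The study asked which RNAs phosphorylated UPF1 (p-UPF1) is bound to in B cells, by RNA immunoprecipitation sequencing (RIP-seq), in which RNA precipitated together with a protein is sequenced. Splenic B cells of wild-type mice, purified as CD43- cells, were activated for 72 h with CD40L at 5 ug/mL, anti-IgM antibody at 10 ug/mL and IL-4 at 20 ng/mL as the labels give it, whereas an antibody against CD40 takes the place of CD40L in the published methods. The lysate was precipitated with anti-p-UPF1 antibody (3 libraries) or normal rabbit IgG (3 libraries), and RNA of the lysate itself was sequenced as input (3 libraries). All 9 libraries thus carried the same genotype and stimulation and differed in the precipitation alone, so every value below compares RNA fractions of activated cells and not activated with resting cells. The study's methods call the data points of its graphs independent biological replicates, but neither they nor the labels say whether these RIP-seq libraries came from separate mice or cultures. If they did not, the p-values measure only the spread between these libraries, which may be technical.

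UPF1, an RNA helicase, drives the decay of mRNAs on which translation ends early, called nonsense-mediated mRNA decay (NMD). Once phosphorylated it recruits the factors that degrade the bound mRNA. Tristetraprolin proteins bind AU-rich elements through CCCH zinc fingers and call in deadenylases. Regnase-1 is an endonuclease and Roquin an adaptor for deadenylation, both of which act on stem-loops in the 3′ UTR of mRNAs of inflammation, and Regnase-1 is known to work together with UPF1 on translated mRNAs. Several of these regulators are also known to act on their own mRNA, among them tristetraprolin and Regnase-1.

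Library totals ranged from 19873687 to 24945286 counts in the input libraries, from 17372510 to 18550508 in the IgG libraries and from 23251890 to 24802119 in the p-UPF1 libraries. The share of all counts taken by the 10 genes together was 0.178% ± 0.0038 in p-UPF1, 0.161% ± 0.0036 in IgG and 0.166% ± 0.0018 in input (SD, n = 3 each). *Arid5a* held the largest part of it in p-UPF1, with 20330 to 22173 counts per library, against 4161 to 4586 in IgG and 4526 to 5959 in input. The level of 6 of the 10 genes was lower in p-UPF1, as given below. The 6 B cell markers summed to between 3200 and 3223 CPM (counts scaled to a common library size with TMM factors) in input, to between 2494 and 2584 in IgG and to between 2398 and 2471 in p-UPF1, and T cell, NK cell and erythroid markers to under 1 CPM in every library. The 6 myeloid markers summed to between 127.5 and 139 CPM in input, to between 86.0 and 91.5 in IgG and to between 57.2 and 59.4 in p-UPF1. Almost all of this came from *Adgre1*, whereas *Lyz2*, *Csf1r*, *Itgam*, *Cd14* and *Mpo* were near 0. The 4 plasma cell markers summed to between 275 and 281 CPM in input, 217 and 249 in IgG and 135 and 137.5 in p-UPF1, mostly from *Xbp1*. The part of other cells in the results below was not tested. In a level in input, the number of cells that hold an mRNA and its amount per cell cannot be told apart.

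*Arid5a* was the most enriched of the 10 mRNAs in the p-UPF1 precipitate, and *Zfp36l1* and *Elavl1* were the most depleted. *Zc3h12d* and *Rc3h2* were moderately enriched, at percentiles 74.2 and 67.9 of all genes tested over IgG. Each gene was tested by edgeR's quasi-likelihood (QL) F-test, and p-values were adjusted by Benjamini-Hochberg over all 13129 genes. At a threshold of 0.05 on the adjusted p, 3 of the 10 were higher in p-UPF1 than in IgG, beside 40.4% of all genes tested, and 6 were lower, beside 42.2%. Where the log2 fold change also had to reach 1 in size, 1 was higher (22.2% of all genes) and 2 were lower (21.9%). Relative to IgG, the 10 genes had a median log2 fold change of -0.56 and all genes tested one of -0.03.

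Over input the counts were alike. By the same test, 3 genes were higher (40.8% of all genes) and 6 lower (42.6%). None reached a log2 fold change of 2 (6.31% of all genes), and 1, *Zfp36l1*, reached -2 (9.67%). An RNA was called p-UPF1-bound here where its log2 fold change reached 1 relative to IgG and 2 relative to input and both passed the test. None of the 10 genes met this criterion, which 6.25% of all genes tested met, and *Arid5a* missed it by its value over input alone. The p-UPF1 libraries were all higher than the 6 control libraries for 3 of the 10 genes (37.0% of all genes) and all lower for 6 (37.6%). Most of the genes tested thus passed the test in one direction or the other, and these counts are not a property of the 10 genes.

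**Figure D1:**
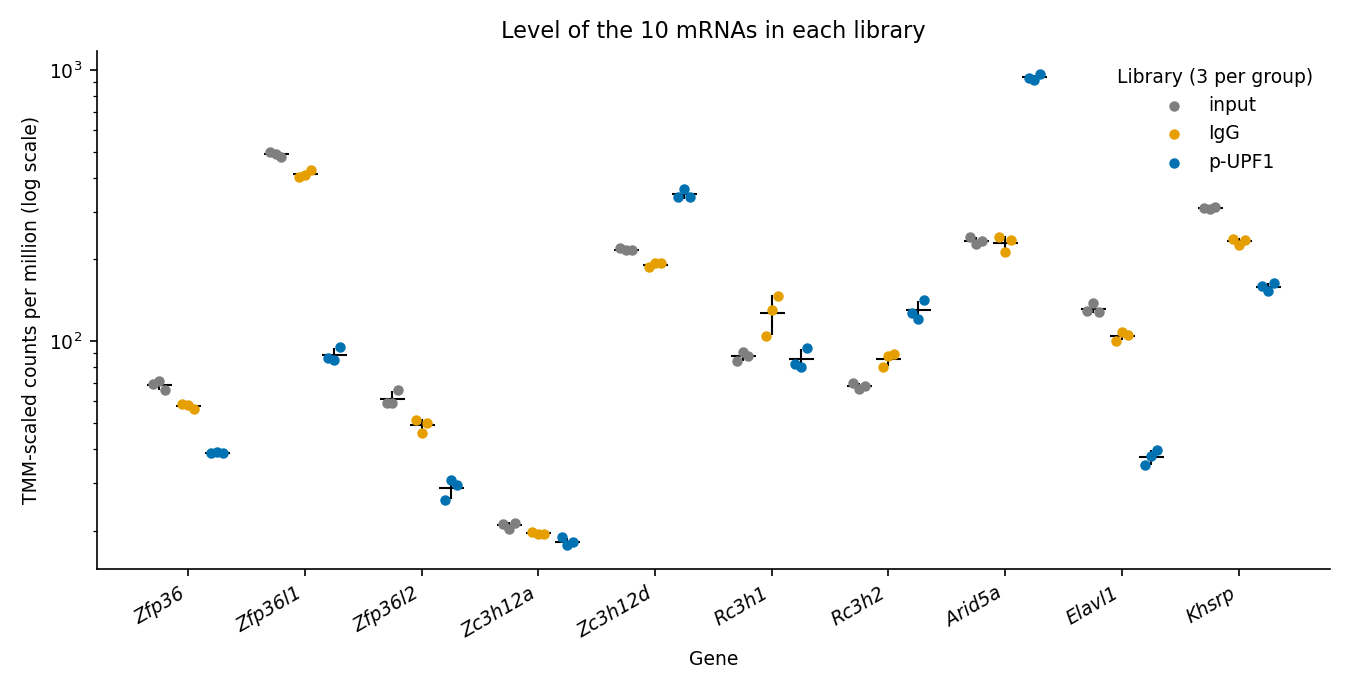
Level of each of the 10 mRNAs (x axis) in TMM-scaled CPM (y axis, log scale) in the 3 input (grey), 3 IgG (orange) and 3 p-UPF1 libraries (blue), with black bars for the mean ± SD. The p-UPF1 libraries lie above all others for Zc3h12d, Rc3h2 and Arid5a, and Rc3h1 is the gene with the widest spread among the IgG libraries.

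In the tristetraprolin family, all 3 mRNAs were lower in p-UPF1 than in both controls. The 3′ UTR of each held 3 copies of UAUUUAU, the core of the AU-rich element that these same proteins bind. The first copy in each is shown with 10 bases on either side, written as DNA 5′ to 3′ with the motif in capitals, because the proteins encoded by these mRNAs are themselves known to bind this motif. All lie in the 3′ UTR on the minus strand of GRCm38 (mm10), at chr7:28376967-28376993 for *Zfp36*, chr12:80108423-80108449 for *Zfp36l1* and chr17:84184915-84184941 for *Zfp36l2*.
Zfp36: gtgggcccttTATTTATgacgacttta
Zfp36l1: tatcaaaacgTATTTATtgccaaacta
Zfp36l2: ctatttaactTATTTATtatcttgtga

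*Zfp36l1* (gene 12192, chr12:80107760-80113013), which with *Zfp36l2* is known to restrain the cell cycle in developing B cells, was the most abundant of the 10 mRNAs in input. Input libraries held 498, 490 and 477 CPM, IgG libraries 404, 409 and 426, and p-UPF1 libraries 86.3, 85.4 and 94.7. The groups did not overlap, and the p-UPF1 libraries stood far below both others. Relative to IgG the log2 fold change was -2.22 (SE 0.046, adjusted p = 1.48e-16, edgeR QL test), and relative to input it was -2.46 (SE 0.047, adjusted p = 3.42e-17). It placed *Zfp36l1* at percentile 4.8 of all genes tested over IgG and 5.8 over input. The 3 genes whose pattern over the 9 libraries was most like that of *Zfp36l1*, of 8991 candidates of at least 10 CPM, were *Pcna*, the sliding clamp of DNA replication, *Slc25a4*, an ADP/ATP carrier of mitochondria, and *Calm2*, a calmodulin gene. The root mean square difference of centred log2 CPM was 0.0398, 0.0478 and 0.0511 for them.

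*Zfp36* (gene 22695, chr7:28376784-28379228) encodes tristetraprolin itself. Input libraries held 69.6, 70.9 and 65.8 CPM, IgG libraries 58.7, 58.3 and 56.0, and p-UPF1 libraries 38.5, 39.1 and 38.6. The p-UPF1 libraries were lower without overlap, but the drop was far smaller than that of *Zfp36l1*, with a log2 fold change of -0.57 against IgG (SE 0.051, adjusted p = 1.84e-08, edgeR QL test) and of -0.83 against input (SE 0.050, adjusted p = 9.7e-11). *Zfp36l2* (gene 12193, chr17:84183924-84187947) had 59.0, 59.1 and 66.0 CPM in the input libraries, 51.1, 45.7 and 49.8 in the IgG libraries, and 25.9, 30.8 and 29.5 in the p-UPF1 libraries. It too was lower in every p-UPF1 library than in any other, with a log2 fold change of -0.77 against IgG (SE 0.073, adjusted p = 4.74e-08) and of -1.10 against input (SE 0.071, adjusted p = 2.97e-10) in the same fit.

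The unequal drop changed the make-up of the family within a library, a comparison that needs no scaling between libraries. Counts of *Zfp36* were 0.437 times those of *Zfp36l1* in p-UPF1, against 0.140 in IgG and 0.141 in input. The ratio of *Zfp36l1* to *Zfp36l2* was 3.10 in p-UPF1, 8.45 in IgG and 7.96 in input. In contrast, *Zfp36* and *Zfp36l2* had a ratio of 1.35 in p-UPF1 and 1.18 in IgG, with overlapping libraries (exact permutation p = 0.2, two-sided), and the mean ratio in input was 1.12, with libraries that overlapped IgG but not p-UPF1.

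In the Regnase family the p-UPF1 precipitate held more *Zc3h12d* than the controls, and *Zc3h12a* was slightly lower than in input and did not pass the test against IgG. *Zc3h12d* (gene 237256, chr10:7832323-7870397), which encodes Regnase-4, had 220, 217 and 216 CPM in the input libraries, 187, 193 and 193 in the IgG libraries, and 339, 365 and 341 in the p-UPF1 libraries. All p-UPF1 libraries were higher than all others, with a log2 fold change of 0.87 against IgG (SE 0.040, adjusted p = 3.55e-12, edgeR QL test) and of 0.68 against input (SE 0.040, adjusted p = 7.3e-11). Its span overlaps *Mir5104* on the same strand and *Gm24726* on the opposite strand, and whether either lies in an exon of *Zc3h12d* was not examined. If one does, a part of the counts of *Zc3h12d* is uncertain, for *Mir5104* whether or not strand was used in counting.

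*Zc3h12a* (gene 230738, chr4:125118414-125127881) encodes Regnase-1. Input libraries held 21.2, 20.3 and 21.2 CPM, the lowest of the 10 genes on this scale, IgG libraries 19.8, 19.5 and 19.4, and p-UPF1 libraries 18.9, 17.7 and 18.1. Although each p-UPF1 library lay below all the others, the log2 fold change of -0.10 against IgG (SE 0.070) did not pass the test (adjusted p = 0.192, edgeR QL test), and the one against input was -0.20 (SE 0.069, adjusted p = 0.0145). The call over IgG was gained under 3 of 20 alternatives and the one over input was lost under 4 of 20. It ranked near the middle of all genes, at percentile 47.8 over IgG and 45.1 over input. Counts of *Zc3h12a* were 0.0524 times those of *Zc3h12d* in p-UPF1, 0.102 times in IgG and 0.0962 times in input.

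The 3′ UTR of *Zc3h12a* held no UAUUUAU but 4 hairpins of the shape that Regnase-1 and Roquin are known to read, searched here as a stem of 5 pairs (G-U pairs allowed) closing a loop of 3 bases in the order pyrimidine, purine, pyrimidine. A pair of them is shown because the *Zc3h12a* mRNA is known as a target of its own protein, with the loop in capitals. They lie 197 and 379 bases after the stop codon on the minus strand of GRCm38, at chr4:125119070-125119082 and chr4:125118888-125118900.
Zc3h12a, nearer the stop codon: atacaCATtgtat
Zc3h12a, farther from the stop codon: ggcacCATgtgcc

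The Roquin genes parted in the p-UPF1 precipitate. *Rc3h2* (gene 319817, chr2:37368861-37424370), which encodes Roquin-2, had 70.3, 66.4 and 68.0 CPM in the input libraries, 80.2, 87.9 and 89.4 in the IgG libraries, and 127, 121 and 142 in the p-UPF1 libraries. The 3 groups did not overlap, with p-UPF1 highest, and the log2 fold change was 0.60 against IgG (SE 0.059, adjusted p = 7.18e-08, edgeR QL test) and 0.93 against input (SE 0.059, adjusted p = 2.29e-10). *Snord90* lies within its span on the same strand, and whether it lies in an exon was not examined.

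*Rc3h1* (gene 381305, chr1:160906411-160974976), which encodes Roquin-1, had 84.2, 91.3 and 88.1 CPM in the input libraries, 104, 130 and 146 in the IgG libraries, and 82.1, 80.0 and 94.7 in the p-UPF1 libraries. The p-UPF1 libraries thus overlapped the input libraries and lay below the IgG libraries, whose coefficient of variation of 16.8% was the widest of the 10 genes. By the edgeR QL test the log2 fold change was -0.57 against IgG (SE 0.093, adjusted p = 3.03e-05) and -0.04 against input (SE 0.094, adjusted p = 0.717), while IgG was 0.53 above input (adjusted p = 1.72e-04). Without the IgG library of the highest value, the log2 fold change over IgG was -0.45 (adjusted p = 1.7e-04). The ratio of *Rc3h1* to *Rc3h2* was 0.658 in p-UPF1, ranging over libraries from 0.645 to 0.669, against 1.47 in IgG and 1.29 in input, so that *Rc3h1* had the more counts of the pair in both controls and the fewer in p-UPF1.

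Both Roquin mRNAs have long 3′ UTRs, and the one of *Rc3h2* holds its first UAUUUAU near the stop codon. It was the only gene of the 10 with this motif in the first 500 bases of the 3′ UTR, which 11.6% of the tested genes with a 3′ UTR of that length had. The site lies at chr2:37374757-37374783 on the minus strand of GRCm38 and is shown as above, with the motif in capitals.
Rc3h2: ccagctgcttTATTTATctttttcatt

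*Arid5a* (gene 214855, chr1:36307733-36324037) encodes an AT-rich interaction domain protein known to hold on to stem-loops of *Il6* and other mRNAs and so to oppose Regnase-1. Its level was 242, 228 and 235 CPM in input and 241, 212 and 235 in IgG, which overlapped. In p-UPF1 it was 934, 918 and 964, above all other libraries. Relative to IgG the log2 fold change was 2.03 (SE 0.048, adjusted p = 6.04e-16, edgeR QL test). It was 1.998 relative to input (SE 0.048, adjusted p = 5.56e-16), and IgG differed from input by -0.03 (adjusted p = 0.586). It stood at percentile 93.3 of all genes over IgG and 93.7 over input.

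The value of *Arid5a* over input lay nearer to the minimum of 2 than its SE, and it ranged from 1.93 to 2.13 over the 20 alternatives. It was at or above 2 under 11 of them, so the count of p-UPF1-bound genes among the 10 was 0 or 1 depending on the setting. Of 8991 candidates, the gene whose pattern over the 9 libraries was most like that of *Arid5a* was *Upf1* itself, with a root mean square difference of 0.0414 on the centred log2 CPM scale, followed by *B130055M24Rik* (0.0466) and *Urm1* (0.0480). The level of *Upf1* mRNA was 503 ± 2.63 CPM in p-UPF1 against 119 ± 3.60 in IgG and 122 ± 1.02 in input (SD, n = 3), a log2 fold change of 2.08 and 2.04 in turn. Counts of *Zc3h12a* were 0.0194 times those of *Arid5a* in p-UPF1, 0.0854 times in IgG and 0.0891 times in input.

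*Elavl1* (gene 15568, chr8:4284781-4325140), which encodes HuR, a protein that binds AU-rich elements and stabilises the mRNA, went the other way. Input libraries held 129, 138 and 128 CPM, IgG libraries 100, 108 and 105, and p-UPF1 libraries 34.8, 37.5 and 39.5. The 3 groups did not overlap, with p-UPF1 lowest. The log2 fold change was -1.49 against IgG (SE 0.055, adjusted p = 1.83e-13, edgeR QL test) and -1.82 against input (SE 0.055, adjusted p = 9.31e-15). Its 3′ UTR of 4818 bases held 8 copies of UAUUUAU, the most of the 10 genes, some of them overlapping in a run that starts 3795 bases after the stop codon. The first is shown for this run, at chr8:4285789-4285815 on the minus strand of GRCm38.
Elavl1: tcatgaaaatTATTTATttatttattt

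*Khsrp* (gene 16549, chr17:57021049-57031507) encodes KSRP, a KH domain protein that binds AU-rich elements and promotes decay. Input libraries held 309, 307 and 312 CPM, IgG libraries 237, 227 and 236, and p-UPF1 libraries 159, 152 and 164. The 3 groups stood in this order without overlap, and the log2 fold change was -0.56 against IgG (SE 0.040, adjusted p = 1.23e-09, edgeR QL test) and -0.96 against input (SE 0.040, adjusted p = 6.75e-13). Between the AU-rich binders of opposed function, counts of *Zfp36* were 1.04 times those of *Elavl1* in p-UPF1, 0.553 times in IgG and 0.522 times in input. The ratio of *Elavl1* to *Khsrp* was 0.235 in p-UPF1, 0.447 in IgG and 0.426 in input.

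**Figure D2:**
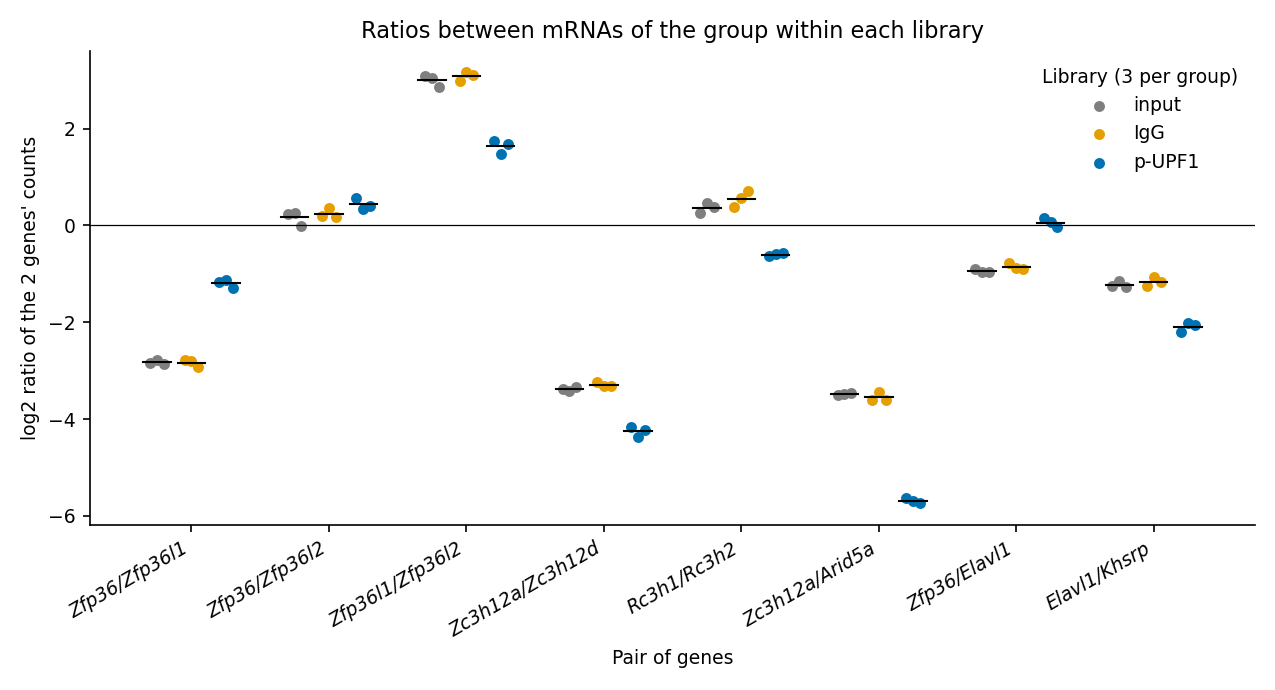
Log2 ratio of the counts of 2 genes (y axis) for the 8 pairs compared (x axis), each point 1 library of input (grey), IgG (orange) or p-UPF1 (blue) and each black bar the mean of 3. The p-UPF1 libraries stand apart from both controls for each pair but Zfp36/Zfp36l2, where they overlap IgG.

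Over the 8 pairs and both controls, 16 comparisons of such ratios were made. In 15 of them the libraries did not overlap, each with an exact two-sided permutation p = 0.1, the smallest that 3 against 3 libraries can give (0.107 after Benjamini-Hochberg adjustment). This test can therefore not reach a p of 0.05 for a ratio with 3 libraries a group.

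Levels of different genes were compared per kilobase of annotated exon (RPKM, from the TMM-scaled counts). In input the order was *Zfp36l1* (163.7 ± 3.48), *Khsrp* (77.4 ± 0.69), *Zc3h12d* (48.1 ± 0.438), *Zfp36* (39.0 ± 1.51), *Arid5a* (24.0 ± 0.677), *Elavl1* (20.4 ± 0.814), *Zfp36l2* (17.4 ± 1.14), *Zc3h12a* (7.46 ± 0.18), *Rc3h1* (7.37 ± 0.298) and *Rc3h2* (5.86 ± 0.171). Only *Zc3h12a* and *Rc3h1* overlapped among neighbours there. In IgG the order of the first 7 was the same, followed by *Rc3h1* (10.6 ± 1.79), *Rc3h2* (7.37 ± 0.422) and *Zc3h12a* (6.97 ± 0.0691), the last pair overlapping.

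In p-UPF1 *Arid5a* led with 95.7 ± 2.4 RPKM, followed by *Zc3h12d* with 77.0 ± 3.17, *Khsrp* with 39.6 ± 1.43, *Zfp36l1* with 29.8 ± 1.73, *Zfp36* with 21.9 ± 0.178 and *Rc3h2* with 11.2 ± 0.901. *Zfp36l2* (8.12 ± 0.713), *Rc3h1* (7.17 ± 0.666) and *Zc3h12a* (6.50 ± 0.214) followed, each overlapping its neighbour in this order, and *Elavl1* was last with 5.77 ± 0.367. *Arid5a* thus moved from the fifth place in both controls to the first, *Zfp36l1* from the first to the fourth, and *Elavl1* from the sixth to the last. Exon length was taken over all annotated transcripts of a gene, which for *Arid5a* sum to 9804 bases, so the level of a gene with many isoforms can be a low estimate.

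IgG itself differed from input for 8 of the 10 mRNAs. *Rc3h1* and *Rc3h2* were higher in IgG by the edgeR QL test at 0.05, beside 18.2% of all genes, and *Zfp36*, *Zfp36l1*, *Zfp36l2*, *Zc3h12d*, *Elavl1* and *Khsrp* were lower, beside 34.7%. These log2 fold changes were small, from -0.41 for *Khsrp* to 0.53 for *Rc3h1*. The split of calls in this comparison moved with the scaling, since 34.4% of all genes called were higher in IgG with TMM factors and 52.6% with library size alone. The call for *Zc3h12d* was lost under 5 of 20 alternatives, whereas those of the other 7 genes were kept under all 20.

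**Figure D3:**
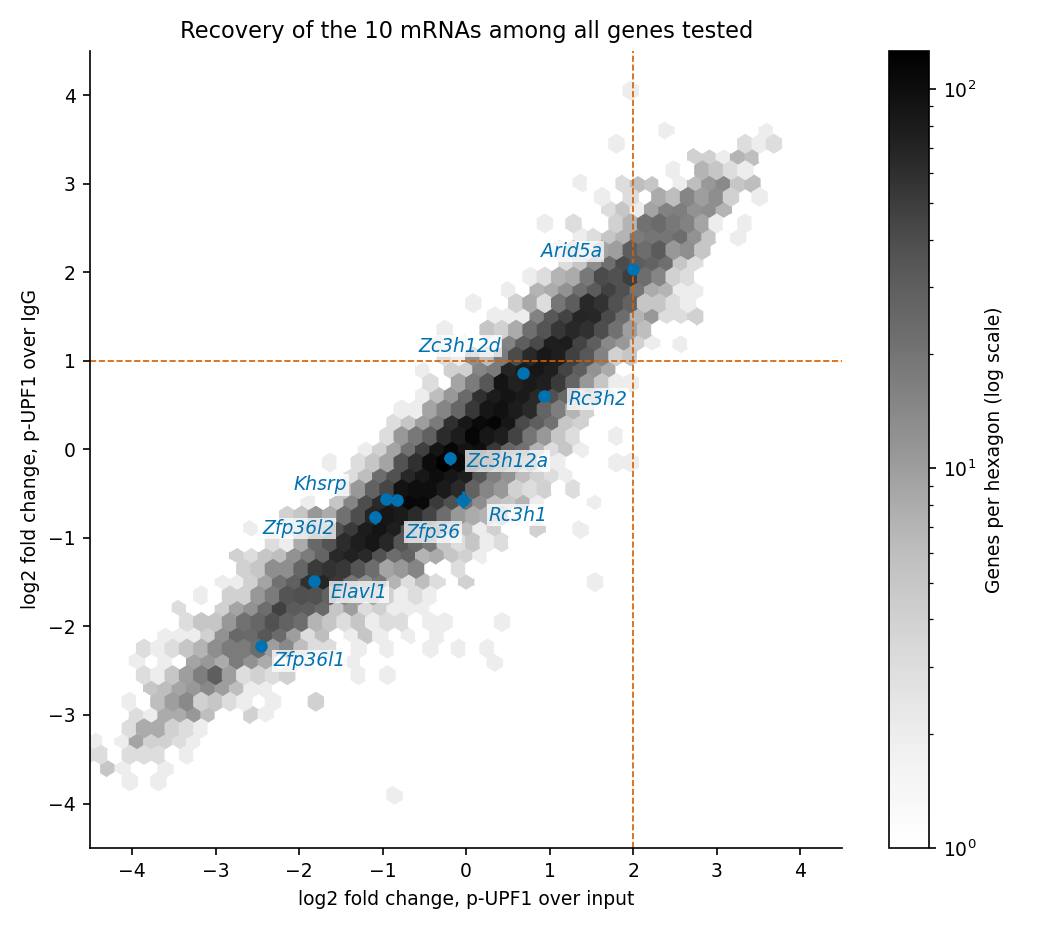
Log2 fold change of p-UPF1 over input (x axis) and over IgG (y axis) for the 10 genes (blue, bars for the SE) on the density of all 13129 genes tested (grey, log scale), with dashed lines at the minimum of 2 over input and 1 over IgG. Arid5a lies on the border of the upper right field at 1.998 and 2.03, and Zfp36l1 lies at -2.46 and -2.22.

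The length of the 3′ UTR is a feature known to draw UPF1 to an mRNA, and the recovery of all genes in these libraries differed with it. Over the 11896 tested genes with a RefSeq mRNA, the median log2 fold change over IgG was 0.41 for the 5946 genes with a 3′ UTR longer than the median of 1015 bases and -0.38 for the 5950 others. The share of p-UPF1-bound genes was 9.87% and 2.82% in these classes. In 10 bins of equal size by length, the median rose from -0.989 in the shortest to 0.579 in the bin of 1766 to 2337 bases and was lower again, at 0.216, in the longest, from 3346 bases, which holds *Rc3h1*, *Rc3h2*, *Arid5a* and *Elavl1*. Of the 10 genes, 8 had a 3′ UTR longer than the median, from 1644 bases in *Khsrp* to 7179 in *Rc3h1*, and *Zfp36* (774) and *Zc3h12a* (865) had a shorter one.

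Against genes of like 3′ UTR length, 7 of the 10 lay below the median and 3 above it, and the same 7 and 3 lay below and above the median of all genes tested. In these bins, *Zfp36l1* (1829 bases) lay at percentile 0.8 of its bin, whose median log2 fold change over IgG was 0.579. *Elavl1* (4818 bases) lay at percentile 3.9, *Zfp36l2* (1829 bases) at 13.1, *Khsrp* at 18.8, *Rc3h1* at 22.2, *Zfp36* at 23.8 and *Zc3h12a* at 39.5. The 3 enriched mRNAs lay above the median of their bin, *Zc3h12d* (2328 bases) at percentile 60.5, *Rc3h2* (5164 bases) at 61.1 and *Arid5a* (3826 bases) at 92.8. *Zfp36l1* and *Zfp36l2* have 3′ UTRs of the same annotated length, with log2 fold changes over IgG of -2.22 and -0.77. *Elavl1* and *Rc3h2* have 3′ UTRs of nearly the same length, with log2 fold changes of -1.49 and 0.60. Whether the length of the 3′ UTR had a part in the recovery of the 10 mRNAs was not tested.

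**Figure D4:**
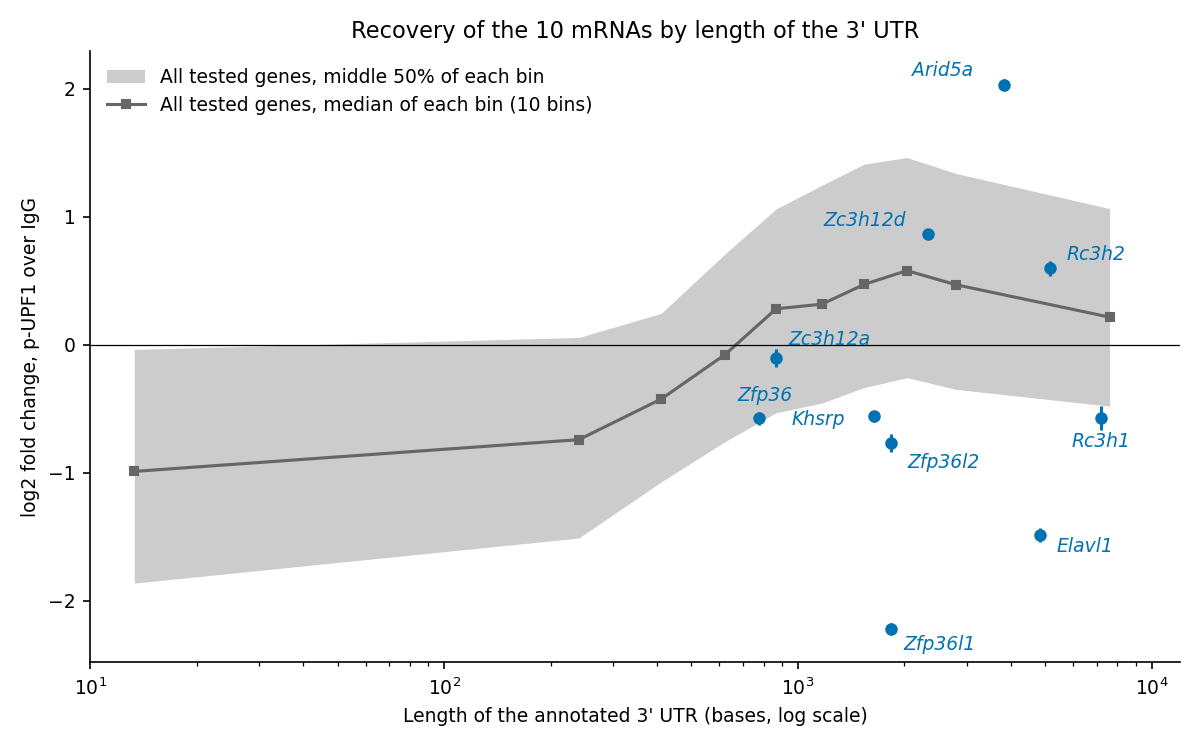
Log2 fold change of p-UPF1 over IgG (y axis) by length of the annotated 3′ UTR in bases (x axis, log scale) for the 10 genes (blue, bars for the SE), with the median (grey squares) and middle 50% (grey band) of all tested genes in 10 bins of length. Arid5a lies above the band, Zfp36 at its lower edge, and Zfp36l1, Zfp36l2, Elavl1, Khsrp and Rc3h1 below it.

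Other features of NMD substrates were also read from the annotation. An upstream AUG in the 5′ UTR, which can open a reading frame that ends before the coding sequence, was present in 48.5% of the tested genes with a RefSeq mRNA and in 5 of the 10. *Zc3h12d* and *Arid5a* had 1 each, *Rc3h2* had 2, and *Zc3h12a* and *Rc3h1* had 3 each. The 3 enriched mRNAs were thus all among those with an upstream AUG, as were *Zc3h12a* and *Rc3h1*, which were not enriched. The 5 without one, *Zfp36*, *Zfp36l1*, *Zfp36l2*, *Elavl1* and *Khsrp*, were all lower in p-UPF1 than in IgG and input. Neither the frame of an upstream AUG nor a stop codon after it was examined. Over the 11896 tested genes with a RefSeq mRNA, the median log2 fold change over IgG was 0.169 with and -0.162 without an upstream AUG, and 6.14% and 6.54% of genes were p-UPF1-bound.

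A transcript that GENCODE classes as subject to NMD was annotated for *Rc3h2* (1 of 10 transcripts) and *Arid5a* (1 of 15) and for none of the other 8 genes, beside 29.0% of the matched tested genes. Over these matched genes, 5.82% with such a transcript and 6.59% without were p-UPF1-bound, and the median log2 fold change over IgG was 0.169 and -0.065. The UAUUUAU motif was present in the 3′ UTR of 6 of the 10 genes and of 27.9% of the tested genes with a RefSeq mRNA. It was present in *Zfp36*, *Zfp36l1*, *Zfp36l2* and *Rc3h2* (3 copies each), *Elavl1* (8) and *Rc3h1* (2), of which *Rc3h2* alone was higher in p-UPF1 than in IgG and input. Over the tested genes with a RefSeq mRNA, the median log2 fold change over IgG was 0.132 with and -0.036 without the motif, and 23.6% and 22.1% of genes were higher than in IgG by 1 or more on the log2 scale (edgeR QL test at 0.05). The hairpin described above occurred in the first 500 bases of the 3′ UTR of 6 of the 10 genes and of 39.8% of the tested genes with a 3′ UTR of that length. Such matches describe the annotated sequence and are not evidence of a bound site.

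Genes around the 10 were described by 4 lists. Of 14 other proteins that bind AU-rich elements or stem-loops, 11 were tested, of which 2 were higher and 7 lower in p-UPF1 than in IgG by the edgeR QL test at 0.05, beside 40.4% and 42.2% of all genes tested. Their median log2 fold change was -0.50, and none was p-UPF1-bound, beside 6.25% of all genes. *Khnyn*, a relative of the Regnase nucleases (0.96), and *Celf1*, which binds GU-rich elements (0.79), were the higher ones. *Fubp1*, a KH domain relative of *Khsrp* (-1.71), and *Hnrnpd*, which encodes the AU-rich binder AUF1 (-1.43), were the lowest.

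Of 14 upstream regulators of the 10 genes, all were tested, and 9 were higher and 4 lower, beside the same 40.4% and 42.2% of all genes, with a median of 0.41. *Mapk14*, which encodes p38α, the kinase at the head of the pathway that phosphorylates tristetraprolin, was p-UPF1-bound. Its level was 573 ± 12.4 CPM in p-UPF1 against 120 ± 2.47 in IgG and 132 ± 3.95 in input (SD, n = 3), a log2 fold change of 2.26 and 2.12 in turn (adjusted p = 2.73e-17 and 3.32e-17, edgeR QL test). *Mapkapk3*, a kinase downstream of p38, rose by 1.37 on the log2 scale over IgG. *Ppp2ca*, the catalytic subunit of the phosphatase PP2A, fell by 1.43, and *Bcl10*, a part of the complex with the protease MALT1 that cleaves Regnase-1 and Roquin, fell by 1.14.

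The mRNAs described as targets of the 10 proteins are given with the same background of 40.4% of all genes tested higher, 42.2% lower and 6.25% p-UPF1-bound, and no test of a list against other genes was made. Of 15 mRNAs described as Regnase or Roquin targets, 10 were tested, 2 were higher (*Ctla4* 1.05 and *Tfrc* 0.35) and 8 lower, the lowest being *Ier3* (-1.79) and *Rel* (-1.54), and the median was -0.87. Of 16 mRNAs described as AU-rich targets, 13 were tested, 3 were higher and 9 lower, with a median of -0.91. *Ccnd1* (1.72) and *Bcl2* (1.27) were the highest of these and *Ccl3* (-1.75) and *Myc* (-1.62) the lowest. *Ctla4*, *Ccnd1* and *Ier3* rested on few reads, at 2.70 ± 0.198, 5.40 ± 1.40 and 0.925 ± 0.078 CPM in p-UPF1 (SD, n = 3). None of the target mRNAs was p-UPF1-bound.

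**Figure D5:**
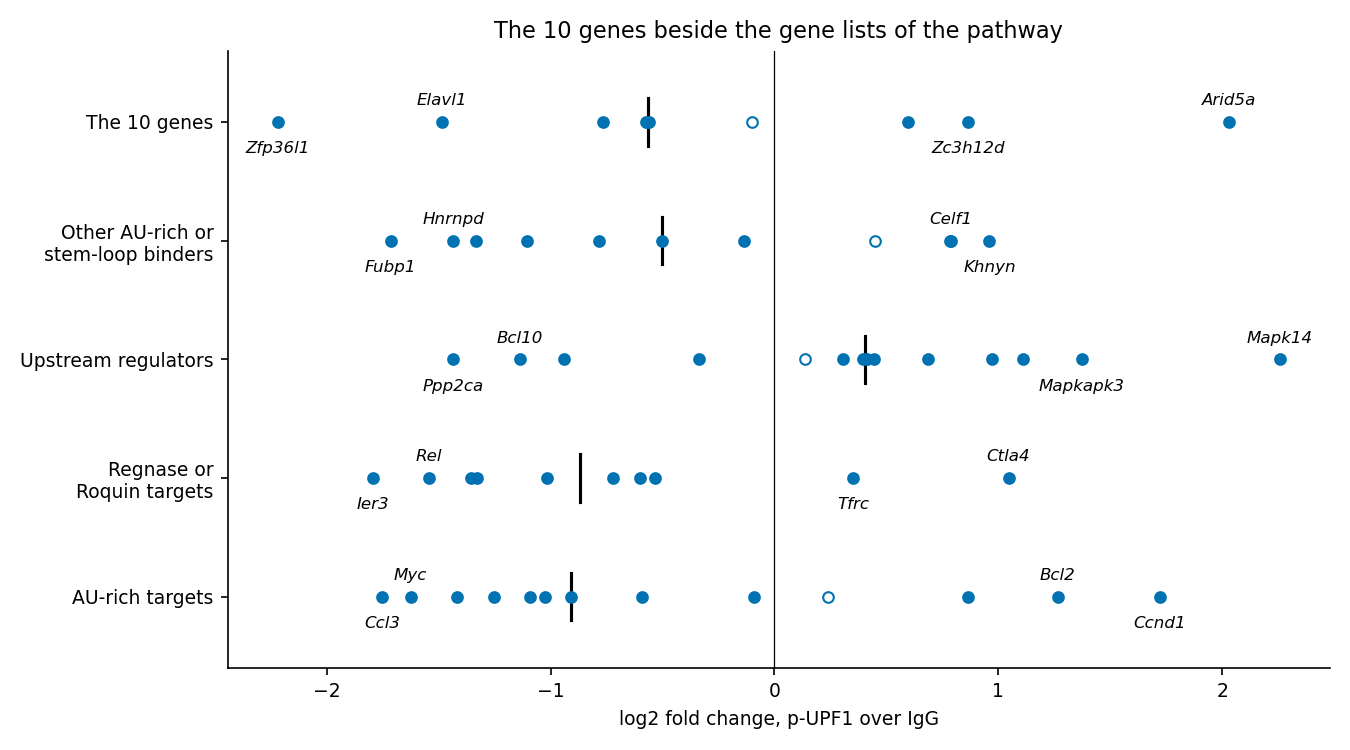
Log2 fold change of p-UPF1 over IgG (x axis) for each tested gene of the 10 and of the 4 lists (rows), filled where the adjusted p was under 0.05, with a black bar for the median of the row and the names of the 2 highest and 2 lowest genes of at least 1 CPM. The medians are -0.56 for the 10 genes, -0.50 for other binders, 0.41 for upstream regulators, -0.87 for Regnase or Roquin targets and -0.91 for AU-rich targets.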

How the data were processed

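The authors deposited raw read counts per gene and library, with genes as NCBI Gene numbers. The submitters' processing notes name cutadapt, HISAT2, featureCounts and mm10, without versions. The methods give an unstranded alignment for the study's RNA-seq and no strand setting for RIP-seq. The counts hold no molecular identifiers. Columns carry letters, so each was mapped to its group only, and the letter entered one alternative as a block.

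Symbols came from RefSeq on GRCm38. Identifiers without a symbol held 0.379% of the counts. The 10 genes, the lists and the tests were chosen with earlier results of these data known. edgeR 4.0.16 (R 4.3.3) was fitted to all 9 libraries with TMM factors, filterByExpr (minimum count 10, minimum total 15), a prior count of 0.125 and 6 residual degrees of freedom. Each contrast was tested with glmQLFTest, with Benjamini-Hochberg adjustment, after a check on simulated data in which, unlike in these libraries, few genes changed. A fold change is therefore measured against the bulk of RNAs in the same fraction. Ratios of counts used a pseudocount of 0.5. Named were the 10 genes, from each list every p-UPF1-bound gene and the 2 highest and 2 lowest over IgG of at least 1 CPM, and the 3 nearest patterns of the most and the least enriched gene. DESeq2 1.42.0, limma-voom (limma 3.58.1), other scalings, filters and thresholds and leaving out each library were the alternatives. Lengths and motifs were read from the RefSeq mRNA with the longest coding sequence, and transcript classes from GENCODE M21. The classes and bins by 3′ UTR length and the feature classes were added after the values were seen. Protein sequences were not used here. Depth was 17372510 to 24945286 counts per library.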

Additional observations from a re-analysis of the deposited data

How the results depend on the processing

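Of the 20 alternatives run on each fold change, every one kept the direction and the call over IgG and over input for 8 of the 10 genes, the exceptions being *Zc3h12a* and *Rc3h1*. The count of p-UPF1-bound genes moved from 0 to 1 (*Arid5a*) with DESeq2 size factors, with TMM referenced to an input library or to an IgG library, with no low-count filter, with at least 1 CPM in 3 libraries, with only the 2 groups compared and with DESeq2, and it ranged from 0 to 1 on leaving out a library, being 1 without input library A, IgG library B, p-UPF1 library A or p-UPF1 library B. The counts of genes past the fold over IgG stayed at 1 higher and 2 lower under all 22 settings.

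*Zc3h12a* passed the test over IgG with upper-quartile factors (-0.24), library size alone (-0.26) and an input library as the TMM reference (-0.19). The first pair of these scalings moved the median of all genes by -0.136 and -0.161. It lost its call over input with an IgG library as the TMM reference, with no filter, with DESeq2 and without p-UPF1 library B (-0.18, adjusted p = 0.0506, edgeR QL test). The uncalled value of *Rc3h1* over input changed sign with DESeq2 size factors (0.0059), an IgG library as reference (0.090), no filter (0.095), DESeq2 (0.0055) and without p-UPF1 library A (0.0085) or B (0.0067), and it spanned -0.12 to 0.0085 over the libraries left out. That of *Arid5a* in IgG over input changed sign with upper-quartile factors (0.037), library size alone (0.083), an input (0.074) or IgG library (0.067) as reference, no filter (0.055), only the 2 groups compared (0.074) and without IgG library B (0.014), and it spanned -0.079 to 0.014 over the libraries left out. That of *Zc3h12a* in IgG over input did so with library size alone (0.017), an input (0.0086) or IgG library (0.0020) as reference and only the 2 groups compared (0.0088). The cause was not tested.

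The ratios within libraries kept their sign with a pseudocount of 5 and without any single library. The columns carry letters that the labels, which number the replicates, do not tie to samples. A fit with the letter as a replicate block, chosen after seeing the data, had 4 residual degrees of freedom and changed no call of the 10 genes. *Arid5a* stayed at 1.998 over input and *Rc3h1* moved from -0.57 to -0.56 over IgG, and the genes called over IgG went from 10845 to 10875. Deviations from the group mean correlated at 0.067 to 0.202 across genes between libraries of the same letter and at -0.144 to 0.031 between others, and each of the 9 libraries correlated best with its own letter, a hint from the data and not from the design. With 3 libraries per group, differences near the SE of 0.040 to 0.093 were not detectable.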
